A study of Mus musculus with 10 samples.

Results

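Axon guidance genes encode the ligands and receptors that steer growing axons and, in vessels, endothelial sprouts. They were followed here in RNA sequencing of brain endothelial cells (BECs) of control mice and of APP/PS1 mice, transgenic animals whose brains accumulate Aβ and which model Alzheimer's disease. Members were the protein-coding genes of the processed table whose symbols begin with Sema, Plxn, Slit, Robo, Ntn, Unc5, Efna, Efnb, Epha or Ephb and a further letter or digit. Sema3g, Efnb2, Ephb4 and the Slitrk genes were left out by the same rule, which used no measured value. The rule found 45 of the 14106 genes in the table, and 22 further genes that it names in the annotation were not in the table. The authors had filtered out genes with low counts, so membership also rests on that filter. One of the 45, Unc50, shares only its letters with the netrin receptors, so it stayed in the counts and in no family. The other 44 were 16 semaphorins, 9 plexins, 2 Slits, 2 Robo receptors, 3 netrins, 1 Unc5 receptor, 4 ephrin-A ligands, 2 ephrin-B ligands and 5 EphA receptors, with no EphB receptor.

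The 10 libraries came from female mice that were 1 year old, 5 from APP/PS1 mice carrying the APPSwe and PSEN1DE9 transgenes and 5 from age-matched controls labelled WT, all on the C3H/BL6 background. BECs were the CD31+CD45- cells of the perfused cortex after removal of the meninges, of myelin with beads, and positive selection with CD31 microbeads. The promoter of the transgenes, and whether a library held 1 mouse or a pool, are not given in the sources used here, so each p-value measures the spread between libraries. Values are the deposited log2 CPM (counts scaled to library size, on a log2 scale), already corrected for batch by the authors, and the adjusted counts behind them summed to between 22371766 and 126686149 per library, with the lowest total in replicate 1 of both groups. Each control library was paired with the APP/PS1 library of the same number. The batch correction left pair means nearly equal, so that in every pair a gene that stood high in one library stood low in the other (rank correlations of the deviations from the group means between −0.999 and −0.989 over 10873 genes). The SDs over libraries below are smaller for it, and a gene lower in all 5 pairs is nearly always also one whose groups do not overlap.

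Semaphorins are secreted or membrane-bound ligands that act mainly through plexins, and the secreted class 3 members also need neuropilin co-receptors. Slits bind Robo receptors, netrins bind DCC, neogenin and Unc5 receptors, and ephrins on one cell bind Eph receptor kinases on its neighbour, with signals in both directions. Endothelial cells use several of these pairs to shape vessels and their barrier: the Sema3e receptor Plxnd1, the vessel-specific receptor Robo4, the netrin receptor Unc5b that Robo4 binds, and ephrin-A1 with its receptor Epha2 are textbook cases.

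The promoter sequences of 5 members are shown, the most abundant ligand (Sema7a), the most abundant Robo receptor (Robo4) and the 3 members with the smallest p in the comparison of genotypes (Sema5b, Efna4 and Plxnb2). Each is the 250 bases before the RefSeq start of the gene in GRCm38.p6, on the strand of the gene. That start lay 217 bases inside the GENCODE gene for Sema5b and 75 bases inside it for Robo4. Those windows therefore overlap the gene positions given below. Capitals mark GC boxes (GGGCGG, or CCGCCC on the other strand) and SOX sites (ACAAAG, or CTTTGT). No ETS core (CCGGAA, or TTCCGG) lay in these 5 windows, and the marked motifs did not overlap. They lie at chr9:57939862-57940111 (Sema7a, plus strand), chr9:37401722-37401971 (Robo4, plus strand), chr15:89180789-89181038 (Plxnb2, minus strand), chr3:89338029-89338278 (Efna4, minus strand) and chr16:35541112-35541361 (Sema5b, plus strand).
Sema7a: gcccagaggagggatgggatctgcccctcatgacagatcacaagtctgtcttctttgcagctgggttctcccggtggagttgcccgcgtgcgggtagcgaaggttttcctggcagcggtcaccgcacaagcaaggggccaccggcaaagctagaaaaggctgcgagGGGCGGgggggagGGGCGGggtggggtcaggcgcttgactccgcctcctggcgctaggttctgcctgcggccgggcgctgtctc
Robo4: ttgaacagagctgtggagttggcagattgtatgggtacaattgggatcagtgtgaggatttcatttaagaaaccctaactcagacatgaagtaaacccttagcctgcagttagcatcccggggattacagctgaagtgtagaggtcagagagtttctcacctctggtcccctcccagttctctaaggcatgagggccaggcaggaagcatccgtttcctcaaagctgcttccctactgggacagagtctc
Plxnb2: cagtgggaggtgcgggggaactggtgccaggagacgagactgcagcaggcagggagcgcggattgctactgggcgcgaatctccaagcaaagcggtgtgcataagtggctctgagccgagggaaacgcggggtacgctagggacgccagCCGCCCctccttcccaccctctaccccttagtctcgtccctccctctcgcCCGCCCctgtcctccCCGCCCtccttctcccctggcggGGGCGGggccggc
Efna4: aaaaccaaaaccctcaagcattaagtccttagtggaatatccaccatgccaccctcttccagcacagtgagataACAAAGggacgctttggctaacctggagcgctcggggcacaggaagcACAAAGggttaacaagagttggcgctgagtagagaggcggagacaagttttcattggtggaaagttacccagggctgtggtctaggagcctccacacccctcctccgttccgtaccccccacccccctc
Sema5b: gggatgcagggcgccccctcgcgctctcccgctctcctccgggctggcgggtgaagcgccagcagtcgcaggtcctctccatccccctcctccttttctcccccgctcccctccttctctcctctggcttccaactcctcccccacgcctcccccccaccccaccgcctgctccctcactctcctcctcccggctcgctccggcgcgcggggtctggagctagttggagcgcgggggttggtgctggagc

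The Sema7a window held 2 GC boxes and 17 CpG, and the Plxnb2 window 4 GC boxes and 20 CpG. The Robo4 window held neither motif and 2 CpG, and the Sema5b window no motif and 19 CpG. The Efna4 window held 2 SOX sites and 7 CpG. A RefSeq window was matched by symbol for 39 members, and only the window nearest to the GENCODE start was kept for each. The kept window lay 37064 bases from that start for Sema4d and 4906 for Ntng2. The comparison sets below hold every window of a gene, so the percentages are of unlike sets. A GC box was in 30 of these 39 (76.9%), against 32.7% of all 32851 windows and 56.9% of the 12572 windows of genes in the table. An ETS core was in 5 members (12.8%), against 12% of all windows and 21.1% of those of genes in the table. A SOX site was in 3 (7.69%), against 16.5% and 12.2%. The 3 with a SOX site were Efna4, Plxnb3 and Sema3d. These letters were chosen after the values of the genes were known, and a match describes the window alone.

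The guidance genes of BECs ranged from among the most abundant transcripts to a few adjusted counts. Per kilobase of annotated exon, Sema7a stood first, at 467 CPM per kb (SD 25.6 over 10 libraries), in the 99.7th percentile of all genes. Sema3c followed at 140 CPM per kb (SD 5.43) and Robo4 at 122 CPM per kb (SD 3.75). Sema7a is a membrane-anchored semaphorin that binds integrins and Plxnc1, and Sema3c is a secreted class 3 ligand. The libraries of these 3 genes overlapped neither each other nor the next gene. Next came Plxnd1 at 52.4, Plxna2 at 39.1, Ntn4 at 37.6 and Efna1 at 33.7 CPM per kb, each of which overlapped its neighbour in the order. In all, 7 members lay above the 90th percentile of genes, and 37 neighbours in the order overlapped while 7 did not. The median member was at 2.48 CPM per kb, against 5.24 for all genes. The ligand Sema4g at 0.0948 and the receptor Plxnb3 at 0.121 CPM per kb were lowest.

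**Figure D1:**
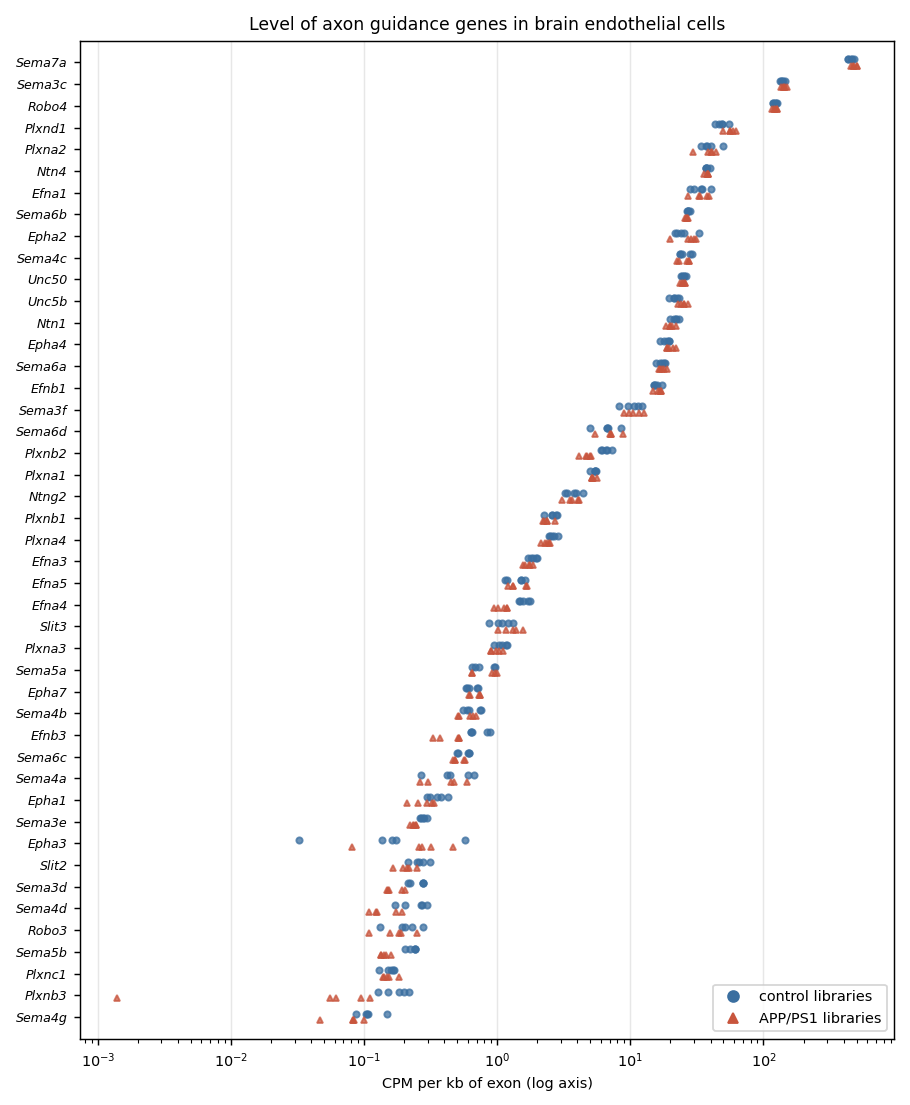
Level of the 45 genes in every library, as CPM per kb of exon on a log axis, ordered by mean level (circles, 5 control libraries, and triangles, 5 APP/PS1 libraries). Sema7a, Sema3c and Robo4 stand apart at the top, from 467 to 122 CPM per kb, and Plxnb3 in APP/PS1 library 4 lies far to the left of its other libraries.

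Between genotypes, the 22 guidance genes of BECs above the median level of all genes had log2 fold changes between −0.47 and 0.23. Some of their intervals were wide, such as −0.36 to 0.58 for Epha2. Members with an unadjusted p under 0.05 were mostly weakly expressed and lower in APP/PS1 libraries. With limma on the whole table, genotype and pair as terms and Benjamini-Hochberg adjustment, 0 of the 45 members passed an adjusted p under 0.05 (0.0% of all 14106 genes passed), and the smallest adjusted p of a member was 0.303. An unadjusted p under 0.05 was found for 9 members (20%) and for 1133 of all genes (8.03%). Of these, 8 were lower in APP/PS1 libraries (5.91% of all genes) and 1, Unc5b, was higher (2.13% of all genes). Without the pair term, limma called 6 members (Efna4, Efnb3, Plxnb2, Sema3d, Sema3e and Sema5b) and 648 of all genes, all 6 members lower. That fit takes no account of the equal pair means. No pair-based exact test could pass a threshold of 0.05, since the smallest two-sided p of a sign-flip permutation over 5 pairs is 0.0625.

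In direction, 17 members were higher and 28 lower (51.8% of all genes were lower), and their median log2 fold change was −0.025. By their estimates alone, 34 of 45 members lay within 0.25 log2 and 1, Plxnb3, beyond 2-fold (257 of all 14106 genes). Intervals could reach well past 0.25, as for Sema5a (−0.46 to 0.60). The share of all genes within 0.25 log2 was not counted. In all 5 pairs 7 members were lower (5.0% of all genes), with groups that did not overlap (4.96% of all genes), and 0 were higher (2.99% of all genes) or higher without overlap (2.91% of all genes). Among the ligands 10 were higher and 17 lower, and among the receptors 7 were higher and 10 lower.

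The level of a gene split the members, a split chosen after the values were seen. The 22 members above the median level of all genes (4.30 log2 CPM) had a median of 0.013 on the log2 scale, with 12 higher and 10 lower, against 42.5% of such genes lower. Of these 22, 1 was lower at an unadjusted p under 0.05 (1.83% of all genes above the median level). The 23 at or below that level had a median of −0.20, with 5 higher and 18 lower, against 61.2% of such genes lower. Of these 23, 7 were lower at an unadjusted p under 0.05 (9.98% of all genes at or below the median level) and 6 were lower in all 5 pairs (7.1% of such genes). Under 1 log2 CPM, 9 of 10 members were lower, at a median of −0.52. The 1916 genes of the table under that level had a median of −0.053, and 1091 of them were lower.

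**Figure D2:**
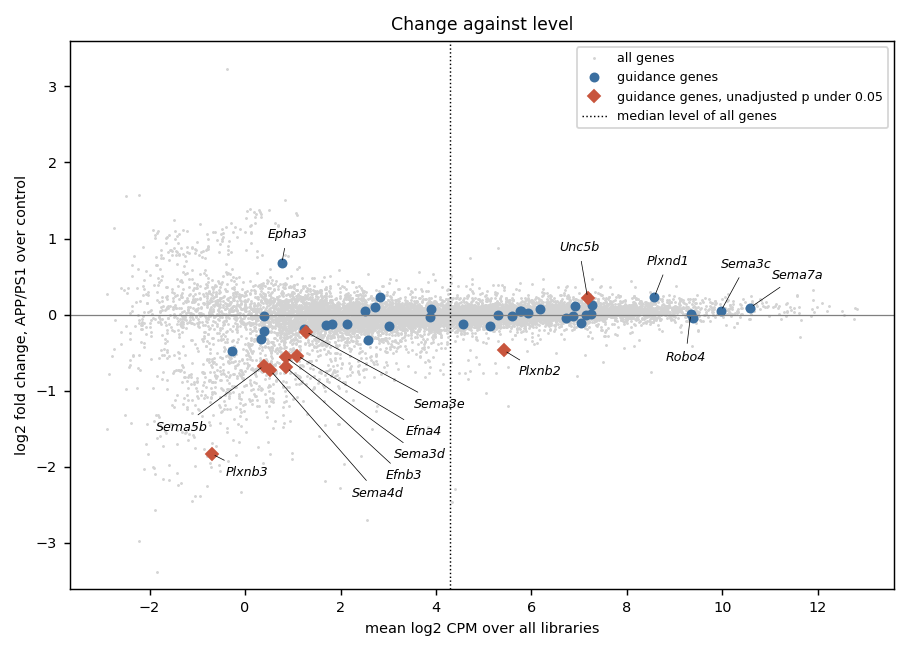
Log2 fold change of APP/PS1 over control (limma) against the mean log2 CPM of 10 libraries, for all 14106 genes (grey) and the 45 guidance genes (blue circles, or red diamonds where the unadjusted p was under 0.05). To the right of the median level at 4.30 log2 CPM only Unc5b and Plxnb2 are diamonds, and 7 diamonds lie below 0 to its left.

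**Figure D3:**
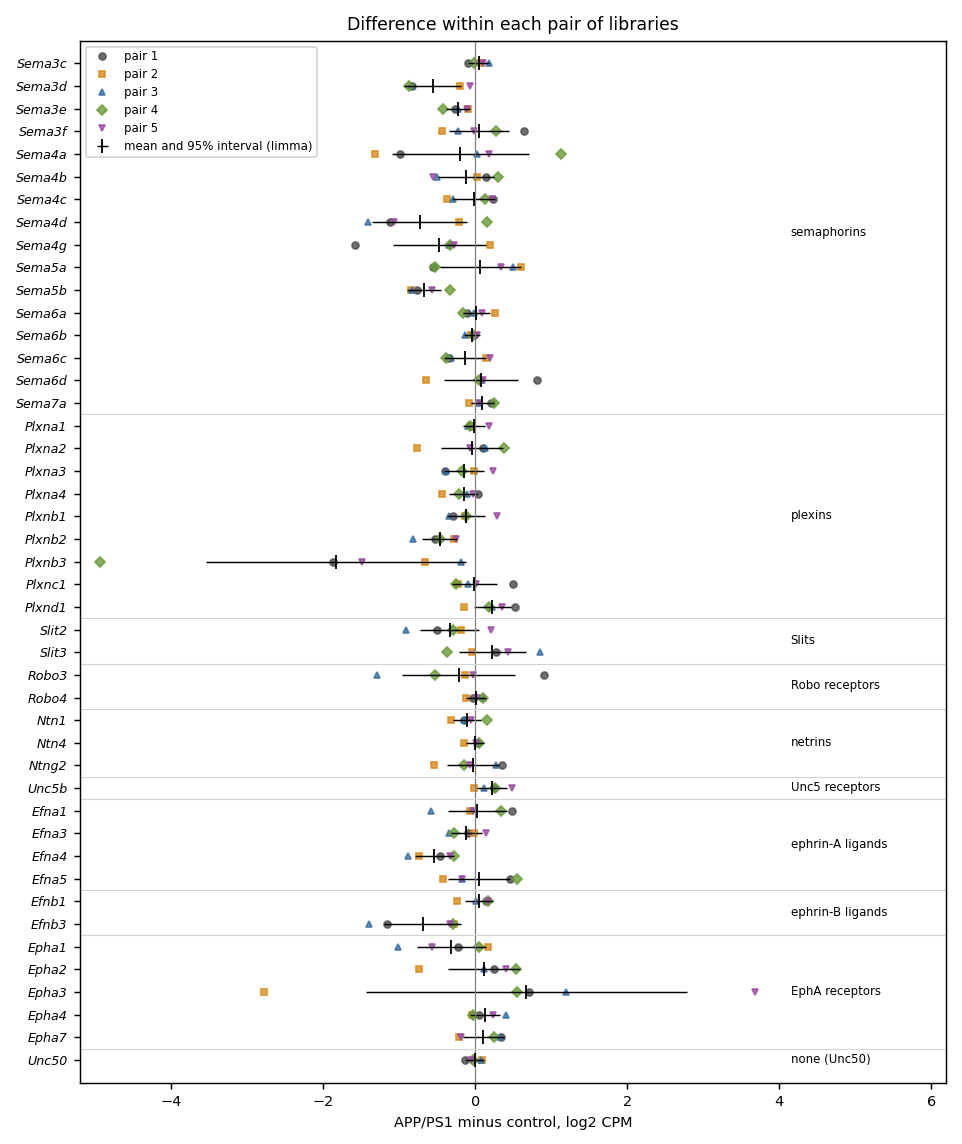
Difference of APP/PS1 minus control in log2 CPM within each of the 5 pairs for every guidance gene, grouped by family, with the limma mean and its 95% interval. Most genes have pairs on both sides of 0, while Sema5b, Efna4, Plxnb2, Sema3d, Sema3e, Efnb3 and Plxnb3 have all 5 pairs below it.

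Sema7a, the most abundant member (chr9:57940112-57962865, plus strand, GRCm38), was at 10.48, 10.62, 10.56, 10.47 and 10.56 log2 CPM in control libraries 1 to 5 and at 10.69, 10.54, 10.61, 10.71 and 10.61 in APP/PS1 libraries 1 to 5. It was higher in 4 of 5 APP/PS1 libraries than in their pairs, and the groups overlapped. Its log2 fold change was 0.094 (95% interval −0.060 to 0.25, limma adjusted p = 0.81). Its receptor Plxnc1 was weakly expressed (0.39 log2 CPM), with a log2 fold change of −0.013 (SE 0.12).

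Class 3 semaphorins are secreted and, apart from Sema3e, signal through neuropilins and plexin-A or plexin-D1 receptors. Sema3c, abundant in BECs (chr5:17574281-17730268), averaged 9.95 ± 0.05 log2 CPM in the control libraries and 9.99 ± 0.05 in those of APP/PS1 mice (SD, n = 5), a log2 fold change of 0.045 (95% interval −0.091 to 0.18). Sema3f (5.77 log2 CPM) differed by 0.047 (SE 0.161), a sign that turned with limma-voom. The other 2 of the class were scarce and lower.

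Sema3d (chr5:12383385-12588948, plus strand) was at 1.26, 0.96, 1.27, 1.28 and 0.90 log2 CPM in control libraries 1 to 5 and at 0.43, 0.76, 0.44, 0.40 and 0.83 in the APP/PS1 libraries. Pairs 1, 3 and 4 were far apart and pairs 2 and 5 close, and the groups did not overlap. Sema3d thus had a log2 fold change of −0.56 (SE 0.152, limma adjusted p = 0.537), or 1.47-fold lower.

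Sema3e, the ligand that binds Plxnd1 without a neuropilin (chr5:14025276-14256689, plus strand), was at 1.41, 1.31, 1.38, 1.47 and 1.32 log2 CPM in control libraries 1 to 5 and at 1.14, 1.22, 1.16, 1.05 and 1.21 in the APP/PS1 libraries. Every APP/PS1 library was below every control library, by a small margin. Its log2 fold change was −0.22 (SE 0.0629, limma adjusted p = 0.553), or 1.17-fold lower.

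Plxnd1 itself (chr6:115954811-115995005, minus strand) was abundant, at 8.46 ± 0.13 log2 CPM in the control libraries and 8.68 ± 0.12 in those of APP/PS1 mice (SD, n = 5). It was higher in 4 of 5 pairs, by 0.18 to 0.52, and lower by 0.15 in pair 2. The log2 fold change was 0.23 (95% interval −0.022 to 0.48, limma adjusted p = 0.671), with a range of 0.15 (without replicate 1) to 0.32 (without replicate 2). The 4 plexin-A receptors, which relay class 3 and class 6 semaphorins, were all slightly lower, with log2 fold changes between −0.15 and −0.019 and no unadjusted p under 0.05. Plxna2 was the most abundant of them per kilobase, with a log2 fold change of −0.045 (SE 0.165). The 4 class 6 semaphorins, membrane ligands of the plexin-A receptors, were 2 higher and 2 lower, with log2 fold changes between −0.14 and 0.078, and the higher ones, Sema6a and Sema6d, turned sign with limma-voom.

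The plexin-B receptors, which bind class 4 and class 5 semaphorins, were lower in all 3 members, at a median log2 fold change of −0.47. Plxnb2 (chr15:89155549-89180788, minus strand), whose GC-rich window is printed above, was the only member above the median level with an unadjusted p under 0.05 and a lower value. It was at 5.68, 5.56, 5.82, 5.66 and 5.55 log2 CPM in control libraries 1 to 5 and at 5.16, 5.28, 5.00, 5.19 and 5.30 in the APP/PS1 libraries. All 5 APP/PS1 libraries lay below all control libraries, with pair 3 farthest apart. The log2 fold change was −0.47 (95% interval −0.70 to −0.24, limma adjusted p = 0.423), or 1.38-fold lower. Leaving out each pair in turn gave −0.52 to −0.38.

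Plxnb3 (chrX:73757090-73772514, plus strand) was at 0.54, 0.03, −0.22, 0.42 and 0.30 log2 CPM in control libraries 1 to 5 and at −1.34, −0.62, −0.41, −4.51 and −1.20 in the APP/PS1 libraries. APP/PS1 library 4 stood far below the rest, at 1 adjusted count against 144 in its control. Plxnb3 had a log2 fold change of −1.83 (SE 0.692, limma adjusted p = 0.598), which was −1.05 without replicate 4. Plxnb1, the receptor of Sema4d, had a log2 fold change of −0.12 (SE 0.101).

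The 5 class 4 semaphorins, membrane ligands of the plexin-B receptors, all had log2 fold changes below 0, from −0.73 to −0.019 with a median of −0.20. Of all genes, 51.8% were lower. Sema4a, Sema4b and Sema4c were nevertheless higher in 3 of 5 pairs each, and only Sema4d had an unadjusted limma p under 0.05. Sema4d (chr13:51685529-51793747) was at 1.10, 0.67, 1.21, 0.44 and 1.07 log2 CPM in control libraries 1 to 5 and at −0.02, 0.45, −0.20, 0.60 and −0.0048 in the APP/PS1 libraries. Pairs 1, 3 and 5 were more than 1 log2 apart, pair 4 ran the other way, and the groups overlapped. Across pairs the log2 fold change averaged −0.73 (SE 0.251, limma adjusted p = 0.573). Sema4c, the abundant class 4 member and a ligand of Plxnb2, was at −0.019 (SE 0.115), and a transcript on the opposite strand covers 7.27% of its exon bases.

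Of the class 5 semaphorins, Sema5b had the smallest p of all members. Class 5 proteins are transmembrane ligands that carry thrombospondin repeats, and Sema5a binds Plxnb3. Sema5b (chr16:35541145-35664732, plus strand) was at 0.81, 0.81, 0.81, 0.55 and 0.67 log2 CPM in control libraries 1 to 5 and at 0.04, −0.04, −0.02, 0.22 and 0.10 in the APP/PS1 libraries. The groups were clearly separate, with the narrowest gap in pair 4. Sema5b had a log2 fold change of −0.67 (95% interval −0.89 to −0.45, limma adjusted p = 0.303), or 1.59-fold lower, and it rested on 22 to 125 adjusted counts per APP/PS1 library. Sema5a had a log2 fold change of 0.068 (SE 0.215).

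**Figure D4:**
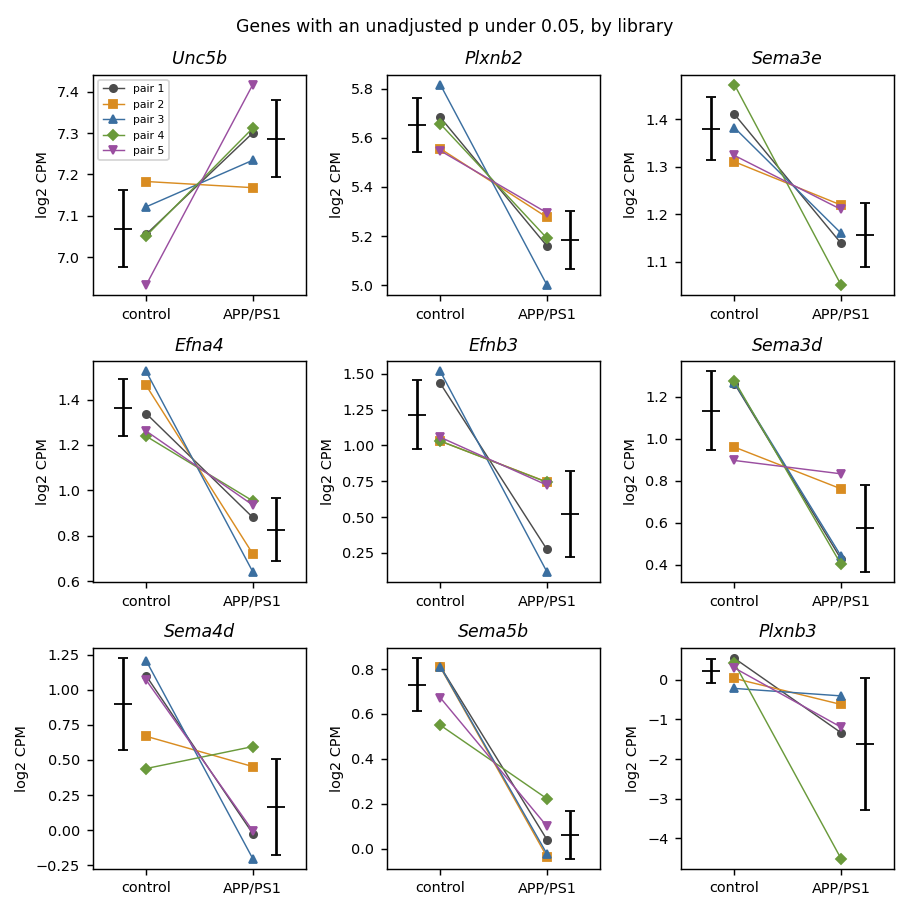
Log2 CPM by library of the 9 guidance genes with an unadjusted p under 0.05, with lines joining the libraries of a pair and bars giving the group mean and SD (n = 5), each panel on its own scale. Unc5b is the only gene whose lines mostly go up, and 1 line in its panel and 1 in that of Sema4d go against the rest.

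Slits and Robo receptors, which repel axons at the midline and act on vessel stability, did not stand out. Robo4, the endothelial Robo (chr9:37401897-37415115, plus strand), was at 9.35, 9.39, 9.29, 9.29 and 9.33 log2 CPM in control libraries 1 to 5 and at 9.32, 9.27, 9.39, 9.39 and 9.35 in the APP/PS1 libraries. The groups overlapped almost fully. Its log2 fold change was 0.013 (95% interval −0.12 to 0.14), and its sign turned with library-size scaling and with limma-voom, at −0.025 and −0.026. Its neighbour Robo3 was scarce, at −0.22 (SE 0.3), with pairs between −1.30 and 0.90.

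Slit2 averaged 2.74 ± 0.20 log2 CPM in the control libraries and 2.40 ± 0.22 in those of APP/PS1 mice (SD, n = 5), a log2 fold change of −0.34 (SE 0.159, limma adjusted p = 0.698) with 4 of 5 pairs lower. Slit3, the more abundant Slit per kilobase, averaged 2.72 ± 0.23 and 2.95 ± 0.24 log2 CPM, a log2 fold change of 0.23 (SE 0.178, limma adjusted p = 0.837). With a replicate left out, Slit2 ranged from −0.48 (without replicate 5) to −0.19 (without replicate 3) and Slit3 from 0.070 (without replicate 3) to 0.38 (without replicate 4). The difference between the Slits was not tested.

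Netrin genes did not pass the adjusted threshold, and Unc5b was the only one with an unadjusted p under 0.05. Unc5b (chr10:60762593-60831581, minus strand) was at 7.05, 7.18, 7.12, 7.05 and 6.93 log2 CPM in control libraries 1 to 5 and at 7.30, 7.17, 7.23, 7.31 and 7.42 in the APP/PS1 libraries. It was higher in 4 of 5 pairs, level in pair 2, and the groups overlapped only through that pair. Its log2 fold change was 0.22 (95% interval 0.022 to 0.41, limma adjusted p = 0.594), or 1.16-fold higher. The unadjusted limma p of 0.035 rose above 0.05 without replicate 1, 4 or 5 (0.083, 0.089 and 0.093).

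Ntn4, a netrin that binds laminin in basement membranes, averaged 7.14 ± 0.04 log2 CPM in the control libraries and 7.13 ± 0.04 in those of APP/PS1 mice (SD, n = 5), with a log2 fold change of −0.0055 (95% interval −0.13 to 0.12). Ntn1, the classical netrin and the ligand of Unc5b, averaged 7.09 ± 0.08 and 6.98 ± 0.09 log2 CPM, with a log2 fold change of −0.11 (95% interval −0.29 to 0.078, limma adjusted p = 0.815), ranging from −0.17 (without replicate 4) to −0.053 (without replicate 2). Ntng2, a membrane-anchored netrin-G that binds synaptic partners instead of DCC, was at −0.025 (SE 0.139). It shares 14% of its exon bases with a transcript on the same strand, whose reads could have been counted elsewhere.

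In the ephrin system the abundant endothelial pair had wide intervals on both sides of 0, and 2 scarce ligands were lower at an unadjusted p under 0.05. Efna1 averaged 5.92 ± 0.20 log2 CPM in the control libraries and 5.95 ± 0.21 in those of APP/PS1 mice, and its receptor Epha2 averaged 6.86 ± 0.24 and 6.98 ± 0.26 (SD, n = 5). Their log2 fold changes were 0.028 (95% interval −0.36 to 0.42) and 0.11 (95% interval −0.36 to 0.58), the former turning sign under 4 alternatives. That of Epha2 was 0.33 without replicate 2, where its unadjusted limma p came under 0.05, and 0.0074 without replicate 4. Efnb1, the more abundant of the 2 ephrin-B members once Efnb2 is left out by the rule, was at 0.050 (SE 0.0752).

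Efna4 (chr3:89333390-89338028, minus strand), a membrane-anchored ephrin-A ligand, was at 1.34, 1.46, 1.52, 1.24 and 1.26 log2 CPM in control libraries 1 to 5 and at 0.88, 0.72, 0.64, 0.95 and 0.94 in the APP/PS1 libraries. The groups did not overlap, and pairs 2 and 3 were farthest apart. The log2 fold change was −0.54 (95% interval −0.80 to −0.28, limma adjusted p = 0.418), or 1.45-fold lower. An antisense transcript, 4731419I09Rik, covers 10.5% of its exon bases. Whether strand was used in counting is not given in the sources used here, so reads of the pair cannot be told apart, and 4731419I09Rik was at 0.073 (SE 0.068).

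Efnb3, a transmembrane ephrin known from the neural midline (chr11:69554092-69560205, minus strand), was at 1.43, 1.03, 1.52, 1.03 and 1.06 log2 CPM in control libraries 1 to 5 and at 0.27, 0.74, 0.12, 0.74 and 0.72 in the APP/PS1 libraries. Pairs 1 and 3 were more than 1 log2 apart and the other 3 about 0.3, with no overlap of the groups. Efnb3 differed by a log2 fold change of −0.69 (SE 0.205, limma adjusted p = 0.563), or 1.62-fold lower.

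Of the 5 EphA receptors 4 were higher and 1 lower, and none had an unadjusted p under 0.05. Epha3 varied most of all members: it was at 0.54, 2.33, 0.30, 0.64 and −1.65 log2 CPM in control libraries 1 to 5 and at 1.25, −0.44, 1.49, 1.19 and 2.03 in the APP/PS1 libraries. Pair 2 stood at −2.78 and pair 5 at 3.68. Its log2 fold change of 0.67 had a 95% interval from −1.44 to 2.79, so no difference was detectable at this spread. Without replicate 5 it was −0.079, and without replicate 2 it was 1.54. Epha4, the most abundant of the family after Epha2 per kilobase, was at 0.12 (SE 0.080).

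Sema3g, Efnb2 and Ephb4, arterial and venous genes that the rule left out, had log2 fold changes of 0.15, 0.12 and −0.11, with limma adjusted p-values of 0.832, 0.823 and 0.782.

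The co-receptors and other guidance cues were described from a list of 21 genes, of which 17 were measured. Of these 4 were higher and 13 lower, around a median of −0.21. For 8 the unadjusted p was under 0.05, against 8.03% of all genes, and the smallest limma adjusted p was 0.303. Nrp1, the neuropilin shared by semaphorins and VEGF, was at 0.051 (SE 0.0632). Nrp2, its relative in veins and lymphatics, averaged 8.34 ± 0.17 log2 CPM in the control libraries and 7.93 ± 0.17 in those of APP/PS1 mice (SD, n = 5), at −0.41 (limma adjusted p = 0.569) and lower in 4 of 5 pairs. The netrin receptor Neo1 was at 0.037 (SE 0.080). Cxcl12, a chemokine that guides migrating cells, averaged 11.43 ± 0.10 and 11.70 ± 0.09 log2 CPM and was higher in all 5 pairs, at 0.26 (limma adjusted p = 0.569).

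The other 6 of the 8 were scarce and lower. The neogenin ligand Rgma was at −0.95, the Slit-binding proteoglycan Gpc1 at −0.83 and the pseudokinase receptor Ptk7 at −0.77. The adhesion molecules Dscam (−1.52), Dscaml1 (−0.53) and Chl1 (−1.70) rested on few adjusted counts, so their fold changes depend on the prior count. Dscam was at 62 adjusted counts in control library 5 and 1 in APP/PS1 library 5, and Chl1 at 49 and 0. Dscaml1 was at 0 in both libraries of pair 5 and at 5 and 2 in pair 4. The mean levels of these 6 ran from −2.08 to 0.87 log2 CPM. Of 56 intracellular effectors, 53 were measured, 36 of them higher and 17 lower, with a median of 0.029 (below 0 with library-size scaling and with limma-voom) and a smallest limma adjusted p of 0.550. With 5 at an unadjusted p under 0.05 (9.43%), their share was close to the 8.03% of all genes. Of these, the cytoskeletal kinase Rock2 was higher (0.16) and 4 were lower: the actin oxidase Mical2 (−0.81), the Slit-Robo GTPase-activating protein Srgap3 (−0.56), the exchange factor Vav2 (−0.18) and the kinase Pak1 (−0.38).

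Markers of several other brain cells were lower beside the scarce guidance genes. The 20 endothelial markers summed to 39068 to 41864 CPM in control and to 39915 to 42851 CPM in APP/PS1 libraries, their median difference being 0.028. All 9 measured mural cell markers were lower (8 at an unadjusted p under 0.05, median −0.76), and summed to 605 to 1020 against 314 to 609 CPM. The 8 measured oligodendrocyte markers were all lower (4 at that p, median −2.11), and summed to 801 to 1185 against 677 to 926 CPM. Of these 8, 2 were at 0 adjusted counts in at least 1 library, so their fold changes depend on the prior count. Of the markers of oligodendrocyte precursor cells 8 of 9 were lower (5 at that p, median −0.74), and summed to 50.6 to 73.5 against 37.8 to 48.6 CPM. The sums of the groups overlapped for the mural and oligodendrocyte markers and did not for the precursor markers, and the oligodendrocyte sum was higher in the APP/PS1 library of pair 2.

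Astrocyte markers were lower in 9 of 10 genes (3 at that p, median −0.96), and their sums overlapped, at 174 to 215 against 172 to 216 CPM. Neuronal markers were lower in 6 of 7 (4 at that p, median −0.39) and summed to 114 to 136 against 113 to 136 CPM. A sum gives most weight to the most abundant markers of its list and says little about the scarce ones. The highest mean level was 7.22 log2 CPM for astrocyte, 6.66 for neuronal and 9.60 for oligodendrocyte markers. The median levels of these lists were 1.27, 0.93 and 3.05 log2 CPM. Fibroblast markers were lower in 4 of 4 (2 at that p, median −0.67), at 8.60 to 9.70 against 5.37 to 6.29 CPM. Choroid plexus markers were lower in 4 of 4 (3 at that p, median −0.83), at 188 to 220 against 151 to 177 CPM. Microglia and leukocyte markers (4 higher and 5 lower, median −0.025) were at 57.9 to 70.0 against 53.9 to 65.4 CPM, and the 4 erythroid markers (all lower, 0 at that p, median −1.16) at 29.3 to 241 against 14.2 to 153 CPM. The sums of the fibroblast and choroid plexus markers did not overlap. No measured marker of these lists was at 0 in all libraries, though 2 oligodendrocyte markers and 1 precursor marker were at 0 in at least 1. Not in the table, and so not known, were 5 of 12 listed neuronal, 4 of 8 fibroblast and 3 of 7 choroid plexus markers. The same held for 2 of 10 oligodendrocyte, 1 of 10 mural, 1 of 10 precursor, 1 of 10 microglia and leukocyte, and 1 of 5 erythroid markers.

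By pair, the median difference of the guidance genes at or below the median level was −0.34, −0.20, −0.35, −0.29 and −0.06 in pairs 1 to 5. The mural markers gave −1.61, −0.27, −0.66, −1.45 and 0.12, and the markers of oligodendrocyte precursor cells −1.66, −0.33, −0.77, −0.96 and −0.04. The oligodendrocyte markers gave −4.09, 1.47, −1.83, −3.75 and −2.08, the neuronal markers −1.08, 0.08, −0.63, −0.46 and −0.26, and the fibroblast markers −1.43, −0.62, −0.54, −0.80 and −0.68. The astrocyte markers gave −2.60, 0.55, −1.53, −0.74 and −0.20, and the choroid plexus markers −1.71, −0.64, −0.59, −1.01 and −0.14. Microglia and leukocyte markers gave 0.60, 0.25, −0.77, 0.11 and −0.62, and erythroid markers −1.58, −3.33, −3.98, 0.83 and 2.35. All genes at or below the median level gave −0.059, 0.041, −0.060, −0.052 and −0.054. The difference nearest to 0 was in pair 5 for the scarce guidance genes and the mural, precursor, astrocyte, choroid plexus and endothelial markers. It was in pair 2 for the oligodendrocyte and neuronal markers, pair 3 for the fibroblast markers and pair 4 for microglia and erythroid markers. The guidance genes above the median level gave 0.04, −0.14, 0.02, 0.07 and 0.07, and the endothelial markers 0.03, −0.05, 0.13, 0.05 and −0.01. The part of the other cell types in the lower values of the scarce guidance genes was not tested. In bulk RNA, fewer cells of a type and less RNA per cell cannot be told apart.

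**Figure D5:**
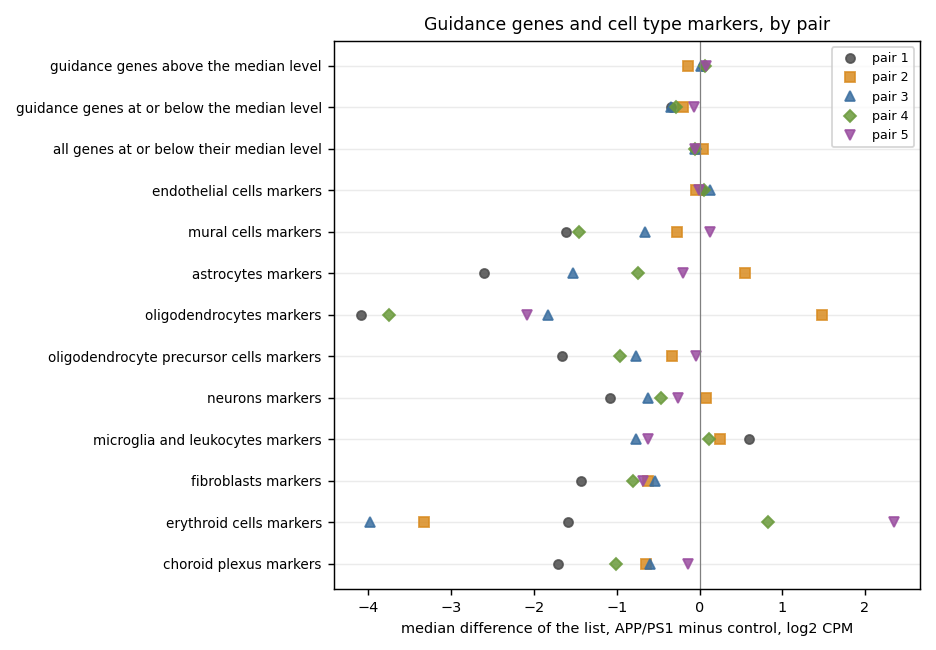
Median difference of APP/PS1 minus control in log2 CPM over the genes of each list, by pair, for the guidance genes above and at or below the median level, for all genes at or below that level and for cell type markers. The scarce guidance genes lie between −0.35 and −0.06, the endothelial markers between −0.05 and 0.13, and the oligodendrocyte markers between −4.09 and 1.47.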

How the data were processed

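RNA of BECs was sequenced in 5 control and 5 APP/PS1 libraries. Reads were aligned by the authors to mm10 with STAR, counted per gene with HTSeq-count, filtered with filterByExpr, turned to log CPM with edgeR and corrected for batch with ComBat; versions are not given in the sources used here. This is the order of the study's methods. The authors deposited log2 CPM of 14106 genes. Whole adjusted counts could be recovered from 100% of the values of every library (tolerance 0.01, prior count 3, lowest possible value −4.85), which are no longer reads, so no counting error was computed. ComBat on log CPM would not in general leave whole counts, so the correction behind the values is not settled.

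The 45 members and all lists were chosen with earlier results of these data known. R 4.3.3 and limma 3.58.1 (lmFit, eBayes with 1 prior variance) fitted genotype and replicate number to the deposited log2 values of all genes, with 4 residual degrees of freedom and Benjamini-Hochberg adjustment over 14106 genes. The labels give 4 batches, with replicates 4 and 5 in the same batch, and replicate numbers otherwise follow the batches. For replicates 4 and 5 the pairing thus rests on the replicate numbers and not on the batch labels. The rank correlations of the deviations from the group means were −0.997 and −0.992 in these pairs. Positions and exon lengths came from GENCODE M21 on GRCm38 (14106 of 14106 genes found), and promoters from RefSeq. Named were members with an unadjusted p under 0.05, the highest per kilobase and the largest difference of each family, members long known in endothelium, the 3 genes left out by the rule, and of the pathway lists the neuropilins, Neo1 and genes with an unadjusted p under 0.05. Sema3f, Sema6a, Sema6d, Plxnb1, Plxnc1, Plxna2, Sema4c, Sema4g, Sema5a, Ntng2 and Epha4 were added after their values were seen. Tested on simulated data with 200 of 14106 genes changed, the fit recovered 46% at 0.5 log2 and 82% at 1 log2, with 6 and 7 false calls. Alternatives were no pair term, 4 batches, limma-voom, library-size and median-of-ratios scaling, a prior count of 0.5, a mean of at least 1 log2 CPM, eBayes with a trend, an adjusted p threshold of 0.10 and each replicate left out.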

Additional observations from a re-analysis of the deposited data

Results flagged for a closer look

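In 3 of 44 groups of 5 libraries, 1 library lay farther from the others than Dixon's limit of 0.71 of the group's range. For independent groups chance gives about 1 in 20. The control and APP/PS1 groups of a gene mirror each other through the equal pair means, so the 44 were not independent. Ntn4 was at 7.21 log2 CPM in control library 2, against 7.12 to 7.13 in the other control libraries. In the paired APP/PS1 library 2 it was at 7.06, against 7.14 to 7.16, as the equal pair means require. Plxnb3 was at −4.51 log2 CPM in APP/PS1 library 4, against −1.34 to −0.41 in the others, and that library held 1 adjusted count of it. Without replicate 4 the log2 fold change of Plxnb3 was −1.05 in place of −1.83.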

How the results depend on the processing

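No member passed an adjusted p under 0.05 under any alternative except the fit without the replicate block, which gave 6. Members with an unadjusted p under 0.05, 9 in the report, ranged from 5 (without replicate 1) to 12 with a replicate left out and were 4 among genes with a mean of at least 1 log2 CPM. Those lower, 8, ranged from 5 to 9 and were 3 with that filter. Those higher, 1, ranged from 0 (without replicate 1, 4 or 5) to 4 (without replicate 2), and were 2 without the block, with 4 batches, with limma-voom and with a trend. Members higher at any p, 17, were 11 with limma-voom. Of members at or below the median level, the 18 lower became 9 and the 7 lower at an unadjusted p under 0.05 became 2 with the filter, which left fewer genes, and the latter ranged from 4 (without replicate 1) to 7 with a replicate left out.

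Of the co-receptors and cues, the 8 with an unadjusted p under 0.05 became 2 with the filter, and ranged from 5 (without replicate 1 or 4) to 9 with a replicate left out. Their median of −0.21 became −0.04 with the filter. Of the effectors, 5 became 14 without the block and 8 with 4 batches, and ranged from 1 (without replicate 1) to 10 (without replicate 2), with 3 without replicate 3. The signs of members close to 0 turned. Efna1 was at −0.044 with limma-voom and −0.0093 with library size alone, and ranged from −0.085 (without replicate 1; −0.050 without replicate 4) to 0.181 with a replicate left out. Robo4 was at −0.026 and −0.025 in the same way and ranged from −0.0093 (without replicate 4; −0.0086 without replicate 3) to 0.046. With a replicate left out, Epha3 ranged from −0.079 (without replicate 5) to 1.54, Ntn4 from −0.018 to 0.031 (without replicate 2) and Robo3 from −0.50 to 0.051 (without replicate 3). Library size alone and limma-voom moved the median of all genes from −0.0038 to −0.041 and −0.040. The unadjusted limma p of Sema4d was above 0.05 without replicate 1, 3 or 5 (0.084, 0.077 and 0.080), that of Plxnb3 without replicate 1 or 5 (0.088 and 0.073) and with a prior count of 0.5 (0.062), that of Efnb3 without replicate 1 (0.051), and that of Sema3e with limma-voom (0.085) and with a trend (0.079). The cause of these moves was not tested. Of 279 values of 22 named members under alternatives, 262 kept their sign and side of the threshold, 11 turned sign and 6 passed it without the block. At an adjusted p under 0.05 the main fit called 0 of all genes. The other fits, apart from the one without the block, called at most 5 (without replicate 2). Keeping the side of the threshold therefore says little, and the 262 speak mainly of sign. Low counts limit the scarce members: Plxnb3 rested on 1 adjusted count in a library, and Sema5b on 22.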
